A study of Mus musculus with 15 samples.

Results

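Spleen macrophages were compared with the macrophages of 5 other tissue sources across all measured genes. Cells carrying F4/80 and CD45 were sorted from tissues of C57BL/6J mice, and their RNA was sequenced by a low-input method without culture. The spleen group (SpM) holds 3 of the 15 libraries. The other 12 hold 3 libraries of brain (microglia), 3 of sympathetic ganglia (SAM ganglia), 2 of sympathetic nerve fibers out of subcutaneous fat (SAM fibers), 2 of visceral fat (vATM) and 2 of subcutaneous fat (sATM). The labels call both fat groups anti-inflammatory. All groups share the strain, the sort and the absence of culture, and the labels name no altered gene or treatment. Every title carries the tag ND, which the labels leave unexplained. Spleen, fat and brain were digested with collagenase for 30 minutes, fibers with hyaluronidase for 30 minutes and then collagenase for 15, and ganglia with collagenase for 10 minutes and then trypsin for 30, all at 37 °C. The tissues came from 10 mice. Nothing in the labels ties a library to an animal, so every p-value sets a difference against library-to-library spread alone, part of which may be technical. Cells were taken by 2 surface proteins from a whole spleen, so the libraries can hold any spleen cell that carries both.

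The spleen filters blood, and its red pulp macrophages take up worn red blood cells, break down their hemoglobin and return the iron to the plasma. The transcription factor SPI-C, encoded by Spic, is needed for these cells to form in mice. They are known for the iron exporter ferroportin (Slc40a1), the adhesion molecule VCAM-1 (Vcam1) and the heme-degrading enzyme heme oxygenase 1 (Hmox1). Other macrophages of the spleen sit in the marginal zone, where they meet blood-borne particles through scavenger receptors such as MARCO.

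Levels below are in CPM (a count as a share of its library, scaled for library composition), as mean ± SD over the libraries of a group, with n = 2 for fibers and for each fat and n = 3 for the other groups. A fold change is the log2 difference between spleen and the equally weighted mean of the other 5 groups, ± SE of the fit. Calls required a fold change past 1 on the log2 scale, up or down, and an adjusted p under 0.05 from edgeR's quasi-likelihood test (Benjamini-Hochberg over all tested genes). Where a group is listed at 0, or most of its libraries are at or under 3 counts, levels are given and no fold change.

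Genes known from red pulp macrophages were at high levels in the spleen libraries. The 4 markers below were chosen with earlier results of these data known. The 4 genes taken as markers of these cells were called higher in spleen, and no library of another group reached the lowest spleen library for any of them. Of all tested genes, 5.28% had spleen libraries above all 12 others, and 2.61% had them below all 12. Slc40a1 (NM_016917, mm10 chromosome 1, 45908070 to 45925594, minus strand), the only known cellular iron exporter, was at 5867, 6274 and 3340.2 CPM in the 3 spleen libraries. In the other 12 it lay between 7.89 and 162 CPM, with microglia the highest of the other groups at 157 ± 7.8 CPM. The log2 fold change was 7.14 ± 0.19 (adjusted p = 1.49e-12). Vcam1 (NM_011693, chromosome 3, 116110020 to 116129688, minus strand), a ligand for integrins on blood cells, was at 3973, 4610.1 and 2569.7 CPM in spleen and at 0.561 to 131 CPM elsewhere (7.52 ± 0.34, adjusted p = 8.20e-10). SpM 3 was the lowest spleen library for both genes.

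Spic itself (NM_011461, chromosome 10, 88675270 to 88683023, minus strand) was at 802, 643 and 547 CPM in spleen (adjusted p = 3.22e-09). The other groups had between 0.418 and 29.4 CPM, lowest in microglia and highest in fibers, and the groups did not overlap. Fcna (NM_007995, chromosome 2, 25624667 to 25627974, minus strand) encodes ficolin A, a soluble lectin that starts the complement cascade. Its level was 919, 958 and 1119.5 CPM in the spleen libraries (7.57 ± 0.39, adjusted p = 1.67e-09). Visceral fat came next with 124 and 146 CPM, and subcutaneous fat had 4.33 and 34.7 CPM, while ganglia, fibers and microglia had at most 2.77 CPM in any library.

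**Figure D1:**
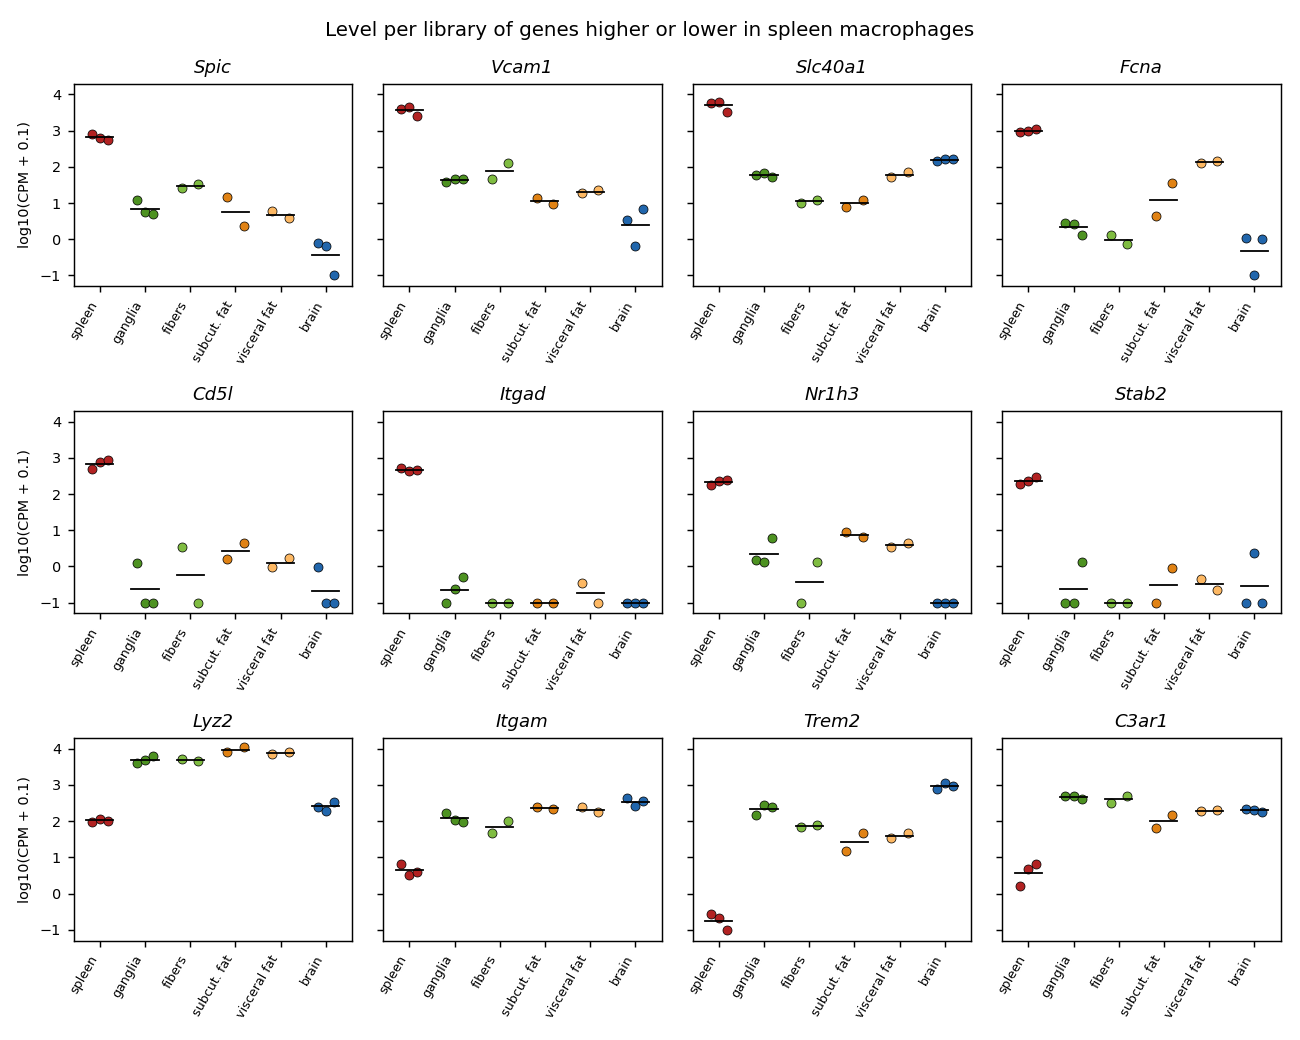
Level of 12 genes in each of the 15 libraries, as log10 of CPM plus 0.1 (vertical axis, log scale), by tissue group (horizontal axis). Points are libraries and horizontal lines are group means on this scale. Spic, Vcam1, Slc40a1, Fcna, Cd5l, Itgad, Nr1h3 and Stab2 lie above all other libraries in spleen, and Lyz2, Itgam, Trem2 and C3ar1 lie below them. Cd5l, Itgad, Stab2 and Trem2 were among the 15 most changed genes each way, for which this was a condition.

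Of all 15289 genes tested, 1029 were called higher in spleen, 6.73% of them, and 875 lower, 5.72%. The median log2 fold change of all tested genes was -0.03, and -0.08 with groups listed at 0 set to 3 counts. Many of these calls rest on some of the reference groups. Only 192 genes (1.26%) were higher in spleen than in each of the 5 groups taken singly, and 222 (1.45%) were lower. Of the 1029 higher genes, 112 were not called against any single group, and 238 were listed at 0 in at least 1 reference group, 161 of those in fibers. A listed 0 need not mean that reads were absent: among genes with at least 100 raw gene-body counts in a library, which include introns and DNA reads, the corrected table lists 4.22% to 19.1% at 0 in the spleen libraries and 3.91% to 39.9% in the others, most in SAM fibers 1. Of the 238 genes, 133 had at least 100 raw counts in every library of a reference group listed at 0. Of the 875 lower genes, 44 were listed at 0 in all 3 spleen libraries. Of the called genes followed by name, 161 were not called on the raw gene-body table but kept their direction there, 131 of them by 1 or more on the log2 scale. Leaving out the library SAM fibers 2 raised the higher count to 1983, and leaving out vATM 1 or vATM 2 lowered the number of genes higher than in each group from 192 to 89 or 109.

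The spleen libraries resembled each other more than they resembled other groups. Correlations of log-scale levels across genes were 0.918 to 0.959 between spleen libraries and 0.605 to 0.957 within the other groups. Against libraries of other groups they were 0.785 to 0.852 for vATM, 0.765 to 0.824 for sATM, 0.714 to 0.825 for ganglia, 0.641 to 0.851 for microglia and 0.346 to 0.680 for fibers. Genes are not independent replicates, so these values describe the libraries only. After DNA removal the spleen libraries held 5931312 to 11395731 counts and the other libraries 2546393 to 12515863, and 3 genes that collect ribosomal RNA reads took 54.0% to 60.6% and 46.1% to 71.5% of them. Raw counts over olfactory receptor genes, a measure of DNA background, were 60.6 to 493 CPM of the raw table in spleen and 32.9 to 1233 in the other libraries, highest in SAM fibers 1, Microglia 2 and SAM ganglia 3. The part of DNA background in the results was not tested. Without those 3 libraries 1325 genes were called higher and 1036 lower. A count of 3 in a library, taken as the lowest level told apart from 0, equals 0.249 to 0.897 CPM and covers counting error only.

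**Figure D2:**
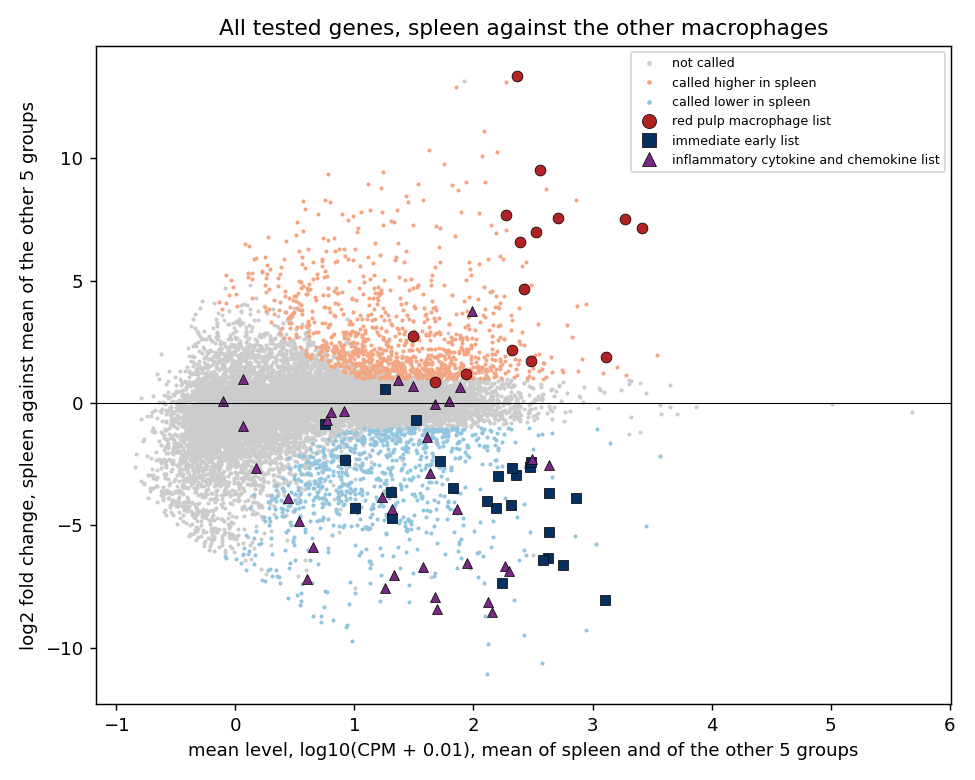
Log2 fold change of spleen against the mean of the other 5 groups (vertical axis) against mean level as log10 of CPM plus 0.01 (horizontal axis, log scale) for the 15289 tested genes. Small points are genes by call, large symbols are members of 3 lists. Fold changes beyond about 8 in size belong mostly to genes listed near 0 on 1 side and depend on the fit's prior count.

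Of the 15 tested genes of the red pulp list, 14 were called higher and none lower, with a median log2 fold change of 6.56. The list holds the markers above and was chosen with earlier results of these data known, so these values partly repeat that choice. The summed level of the list was 12770 to 18830 CPM in the spleen libraries and 678 to 1784 CPM in the others. Without Slc40a1 and Vcam1, but with the markers Spic and Fcna kept, it was 6771 to 7947 CPM against 656 to 1684. Against single groups 12 of the 15 were higher than in ganglia, fibers, sATM or vATM and 14 than in microglia, where 3.60%, 9.14%, 3.56%, 3.32% and 5.79% of all tested genes were higher. Cd5l, a secreted scavenger-receptor protein of tissue macrophages, was at 477, 784 and 887 CPM in spleen and at most 4.37 CPM elsewhere (adjusted p = 4.97e-09). C6, a component of the complement membrane attack complex, was at 303, 429 and 387 CPM against at most 9.31 (adjusted p = 3.05e-08). Treml4, a receptor that binds dead cells in mice, was at 505, 543 and 393 CPM, above all others, although sATM 1 reached 94.5 CPM.

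Itgad, the integrin alpha-D chain, was at 516, 422 and 460.4 CPM in spleen, while the other 12 libraries together held counts in only 3, none above 0.401 CPM (adjusted p = 8.20e-10). Its span overlaps Cox6a2 and 4931431B13Rik, and whether counting used strand is not given in the sources used here, so reads of overlapping genes cannot be told apart. Epor, the erythropoietin receptor, was at 51.6 ± 10.7 CPM against 2.85 to 19.2 in the other groups (2.75 ± 0.38, adjusted p = 6.40e-05). Hpgd, which inactivates prostaglandins, was at 450.3 ± 77.8 CPM against 72.6 to 298 (1.71 ± 0.28, adjusted p = 3.82e-04), and was not called on the raw gene-body counts, at 2.16 (adjusted p = 0.151).

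Cd163, the receptor for hemoglobin bound to haptoglobin, had its highest group mean outside spleen. It was at 108, 92.3 and 74.7 CPM in spleen, 144 ± 25.5 in visceral and 45.8 ± 7.92 in subcutaneous fat, 128 ± 75.4 in fibers, 95 ± 25.7 in ganglia and 1.05 ± 0.915 in microglia. Its call (1.21 ± 0.31, adjusted p = 0.013) was lost without SpM 1 or SpM 2, and the fold change became -0.05 (adjusted p = 0.989) with microglia left out of the mean. Siglec1, the sialoadhesin of marginal metallophilic macrophages, was not called (0.86 ± 0.46, adjusted p = 0.308). Its spleen libraries differed among themselves, at 19.2, 91.2 and 28.3 CPM, with SpM 2 high. Across the 15 members the spread between spleen libraries had a median coefficient of variation of 18.2%, from 7.51% for Hmox1 to 84.8% for Siglec1.

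Several genes that release, degrade, carry and export heme and iron were higher in spleen. Of 38 tested members 13 were higher and 4 lower, with a median log2 fold change of 0.44 (0.41 with groups listed at 0 at their bound). On the raw gene-body counts 9 were higher and none lower. Slc48a1, which moves heme out of the phagolysosome, was at 447, 698 and 703 CPM in spleen and 22.5 to 162 elsewhere (3.24 ± 0.27, adjusted p = 2.62e-07). Its span overlaps Hdac7. Hmox1, which opens the heme ring, was at 549, 505 and 473 CPM against 2.8 to 34.7 in the other groups, lowest in microglia (4.67 ± 0.23, adjusted p = 1.22e-09). No library of another group reached spleen for either gene.

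The biliverdin reductases Blvrb and Blvra, which act after heme oxygenase, were at 338 ± 44.2 and 140.2 ± 10.5 CPM. Their other groups had 28.7 to 142 and 22.8 to 48.4 CPM (2.17 ± 0.18 and 2.03 ± 0.21, adjusted p = 2.85e-07 and 3.72e-06). Slc11a1, a metal transporter of the phagosome, was at 697 ± 169.7 CPM against 156 to 213 (1.88 ± 0.17, adjusted p = 7.79e-07). Trf, the plasma iron carrier transferrin, was at 2007 ± 463 CPM against 342 to 922 (1.87 ± 0.20, adjusted p = 4.53e-06). These 4 genes were higher in spleen than in each of the 5 groups.

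Ferritin light chain (Ftl1), which stores iron, was at 1859, 2315 and 2607 CPM in spleen (1.46 ± 0.20, adjusted p = 4.61e-05). The call was lost with microglia, at 227 ± 52.5 CPM, left out of the mean, and on the raw gene-body counts, where the fold change was 1.64 (adjusted p = 0.216). Gclm, a subunit of the enzyme that starts glutathione synthesis, was higher (2.23 ± 0.44, adjusted p = 0.00196). Among the lower members were 2 transcription factors that control heme oxygenase in opposite directions, the repressor Bach1 and the activator Nfe2l2 (NRF2). Bach1 was at 21, 12.3 and 13.7 CPM in spleen and 25.1 to 128 elsewhere (-1.83 ± 0.40, adjusted p = 0.00412), and Nfe2l2 at 66.2 ± 11.4 against 114 to 337 in the other groups (-1.41 ± 0.34, adjusted p = 0.00789). Neither was called on the raw gene-body counts, at -2.01 and -1.85 (adjusted p = 0.308 and 0.585), and Nfe2l2 was not called without SpM 3. The transferrin receptor Tfrc was not called, at 10.6 ± 2.13 CPM against 6.56 to 28.

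**Figure D3:**
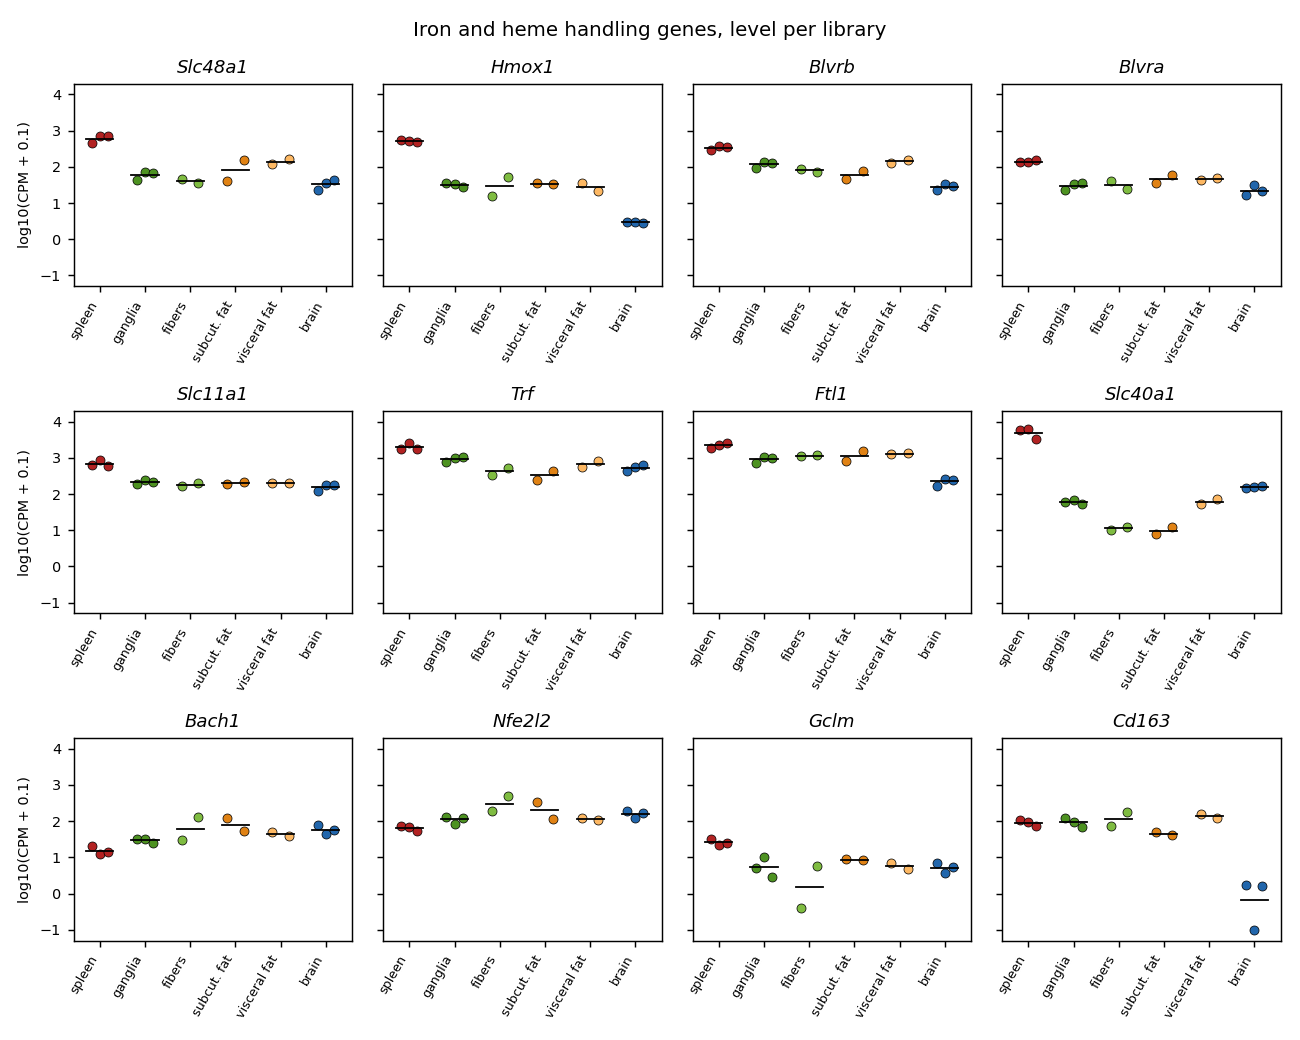
Level of 12 genes of heme and iron handling in each library, as log10 of CPM plus 0.1 (vertical axis, log scale), by tissue group. Points are libraries and lines are group means on this scale. Spleen libraries lie above all others for Slc48a1, Hmox1, Blvrb, Blvra, Slc11a1, Trf, Ftl1, Slc40a1 and Gclm, below them for Bach1 and Nfe2l2, and among them for Cd163.

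Several of the most changed genes outside these lists were listed near 0 in the other macrophages, and those named next were also called on the raw gene-body counts. Slc45a3, a member of a solute carrier family, was at 330.1, 454 and 333 CPM in spleen and at most 0.369 CPM in any other library (adjusted p = 1.21e-09). Adamdec1, a secreted protease of the ADAM family, was at 297, 258 and 185 CPM against at most 2.8 (adjusted p = 8.20e-10). The inward-rectifier potassium channels Kcnj10 and Kcnj16 were at 311 ± 14.5 and 132 ± 25.3 CPM in spleen (adjusted p = 3.85e-09 and 4.64e-08). Ganglia held 14.8 ± 1.38 CPM of Kcnj10 and no other group above 2.61, and Kcnj16 did not exceed 2.24 CPM in a group mean.

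Ptgis, which makes prostacyclin, was at 84.7 ± 12.2 CPM in spleen and at most 0.966 in another group (adjusted p = 1.98e-08). Hs3st2, a heparan sulfate sulfotransferase, was at 113 ± 25 CPM against at most 0.443 (adjusted p = 1.03e-08), and St6galnac2, a sialyltransferase, at 68 ± 5.22 against at most 0.482 (adjusted p = 9.21e-09). Slpi, an inhibitor of neutrophil elastase, was at 1287, 1576 and 1467 CPM against 1.32 to 33.9 in the other groups (8.28 ± 0.47, adjusted p = 4.23e-09). Dmpk, a protein kinase, was at 149 ± 30.9 CPM against at most 1.21 (adjusted p = 4.97e-08). Per gene length, on the authors' RPKM scale, Slpi averaged 1824 ± 261 in spleen, beside 1680 ± 533 for Slc40a1, 1206 ± 361 for Vcam1 and 577 ± 94.9 for Spic.

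Transcription factors of macrophages moved in both directions. Of 44 tested members 7 were higher and 15 lower, with a median of -0.35, and on the raw gene-body counts 5 were higher and 1 lower. Nr1h3, the liver X receptor alpha that senses oxysterols, was at 182, 226 and 247 CPM in spleen (adjusted p = 1.06e-08). The other libraries had at most 8.91 CPM, and microglia were listed at 0. Its partner Rxra was at 136 ± 5.03 CPM against 15 to 36.4 (2.45 ± 0.22, adjusted p = 6.76e-07). Pparg, a fatty-acid-sensing receptor of the same class, was at 103, 106 and 59.6 CPM against at most 16 in another library (adjusted p = 9.11e-05). Other nuclear receptors of the list, Nr1h2, Ppard and Rara, were not called, at 44.8 ± 9.38, 4.28 ± 1.48 and 21.9 ± 3.35 CPM in spleen.

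On the lower side, Mef2c was at 4.91, 3.5 and 4.72 CPM in spleen and 37.6 to 379 elsewhere (-4.99 ± 0.41, adjusted p = 2.21e-07). Cebpa, a factor of myeloid differentiation, was at 17.6 ± 2.08 CPM against 68.2 to 125 (-2.34 ± 0.24, adjusted p = 2.91e-06). Irf4 was at 5.63 ± 0.904 CPM, close to microglia at 5.86 ± 1.01, against 24.5 to 61.5 in the other groups (-2.11 ± 0.31, adjusted p = 1.34e-04). Mef2c, Cebpa and Irf4 were not called on the raw gene-body counts, at -3.48, -1.99 and -1.64 (adjusted p = 0.0687, 0.163 and 0.142). Spi1, encoding PU.1, was just past the fold threshold (-1.03 ± 0.21, adjusted p = 0.00287) and 16 of the 33 alternatives ended its call, 9 by the absence of a single library (Microglia 1, Microglia 2, SAM fibers 1, sATM 1, sATM 2, SpM 1, SpM 3, vATM 1 and vATM 2).

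Targets and carriers of cholesterol export were among the lipid genes that were higher, of which there were 9 of 31, with 4 lower and a median of 0.13. Abcg1, which exports cholesterol to lipoproteins, was at 276, 224 and 215 CPM in spleen and 9.48 to 88.1 in the other groups (2.74 ± 0.26, adjusted p = 9.27e-07). Scarb1, a receptor for high-density lipoprotein, was at 135 ± 34.8 CPM against 11 to 51.4 (2.67 ± 0.23, adjusted p = 3.59e-07), and Apoc1, an apolipoprotein, at 51.7 ± 3.58 against 0.603 to 4.59 (5.01 ± 0.54, adjusted p = 4.14e-06). Abca1, Apoe, Lpl and Mylip, also known targets of liver X receptors, were not called. Srebf1 was called higher (1.58) and Pltp lower (-2.35), the other lower lipid genes being Trem2, Cd36 and Ch25h. Srebf1 and Pltp were not called on the raw gene-body counts, at 1.53 and -1.93 (adjusted p = 0.0545 and 0.321). Abca1 was at 100.4 ± 22 CPM against 53.7 to 237 and Apoe at 4950.0 ± 662 against 689.9 to 27011. Of 21 tested genes of cholesterol synthesis 1 was higher and 1 lower, with a median of 0.11. The higher gene was Dhcr7, whose call was lost without Microglia 1, SAM fibers 1, sATM 1, vATM 1, vATM 2 or any of the 3 spleen libraries. On the raw gene-body counts 3 lipid genes were higher and 2 lower.

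Receptors that capture particles and dying cells were split. Of 27 tested members 12 were higher and 7 lower, with a median of 0.90, and on the raw gene-body counts 7 were higher and 4 lower. Stab2, a scavenger receptor that binds hyaluronan and phosphatidylserine, was at 186, 231 and 292 CPM in spleen and at most 2.25 elsewhere (adjusted p = 5.19e-08). Its paralog Stab1 went the other way, with 2.0, 0.547 and 4.41 CPM in spleen and 45.7 to 468 in the other groups (-6.14 ± 0.52, adjusted p = 3.20e-07). The span of Stab1 overlaps Nt5dc2. Marco was at 49.6, 8.75 and 42 CPM against at most 1.78 (adjusted p = 5.69e-06), with SpM 2 low. Of 7 tested genes of marginal zone macrophages 3 were higher, Marco, Nr1h3 and Timd4, and none lower, with a median of 0.86. Cd68, Siglec1, Msr1 and Cd209b were not called. The lectin Cd209b averaged 0.0197 RPKM in spleen, 2.75 in ganglia, 7.85 in sATM and 20.2 in vATM. Fibers had 0 and microglia 0.159 RPKM. Against ganglia, sATM and vATM taken singly, 1 member of the list was lower and 4, 3 and 2 were higher. Timd4, a phosphatidylserine receptor, was at 53.2 ± 11.9 CPM against 0.749 to 23.4 (adjusted p = 1.74e-05).

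Axl and Mertk, receptors of the TAM family by which macrophages bind dying cells through bridging proteins, were higher in spleen, and the bridging ligands Gas6 and Pros1 were lower. The third receptor, Tyro3, did not pass the filter on low counts. Axl was at 1509, 1876 and 1417 CPM in spleen against 11.8 to 396 in the other groups (4.06 ± 0.42, adjusted p = 3.27e-06), and Mertk at 352, 442 and 279 against 13.4 to 216 (3.38 ± 0.37, adjusted p = 5.20e-06). For Mertk, microglia came closest with 213, 229 and 206 CPM. The bridging ligand Gas6 was at 10.4, 6.89 and 7.0 CPM against 34.3 to 128 (-3.03 ± 0.33, adjusted p = 5.69e-06), and Pros1 at 4.16, 6.02 and 2.13 against 35.9 to 162 (-4.03 ± 0.31, adjusted p = 9.70e-08). Mfge8, which bridges phosphatidylserine to integrins, was at 0.411 ± 0.512 CPM against 5.9 to 26.8 (adjusted p = 3.77e-05). These 3 ligands were lower than in each of the 5 groups, but Gas6 and Mfge8 were not called on the raw gene-body counts, at -2.07 and -1.94 (adjusted p = 0.146 and 0.287). Mrc1, the mannose receptor, was called higher (1.29 ± 0.35, adjusted p = 0.0181) although ganglia, at 1174 ± 451 CPM, lay above spleen, at 895 ± 223. That call was lost without SpM 1, SpM 2, sATM 1 or vATM 1, and with microglia left out of the mean.

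Fc receptor and complement genes moved in both directions. Of 25 tested Fc receptor and complement genes 8 were higher and 7 lower, with a median of 0.55. Soluble components were higher beside C6. Cfp, which encodes properdin, the stabilizer of the alternative pathway, was at 1238 ± 236 CPM against 2.7 to 659.7 (3.98 ± 0.31, adjusted p = 1.33e-07), and C2, a protease of the classical pathway, at 41.9 ± 9.3 against at most 5.56 (adjusted p = 2.18e-07). The anaphylatoxin receptors were lower, C3ar1 at 1.5, 4.59 and 6.54 CPM against 108 to 472 (-5.87 ± 0.46, adjusted p = 1.33e-07) and C5ar1 at 7.15, 4.27 and 4.11 against 63.3 to 312 (-4.71 ± 0.35, adjusted p = 8.13e-08). C3ar1 and C5ar1 did not overlap between spleen and the other libraries. Of all tested genes, 2.61% had spleen below every other library. The C1q genes C1qa, C1qb and C1qc were not called.

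Fc receptors differed by type. Fcgr2b, the inhibitory receptor for IgG, was at 2.83, 4.27 and 1.83 CPM in spleen and 156 to 383 elsewhere (-6.26 ± 0.34, adjusted p = 2.28e-09). Fcgr4, an activating receptor of the mouse, was at 147 ± 37.7 CPM against 13.4 to 74.1 (2.61 ± 0.22, adjusted p = 3.59e-07). Fcgr1 and Fcgr3 were not called, at 112 ± 23.3 and 271 ± 45.5 CPM in spleen against 55.4 to 231 and 267 to 666 in the other groups.

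Of 28 tested integrin and adhesion genes 8 were higher and 6 lower, with a median of 0.11, and 3 and 1 on the raw gene-body counts. The alpha chains that pair with the common beta-2 chain parted: Itgam, encoding CD11b, was at 6.49, 3.06 and 3.96 CPM in spleen and 47.8 to 427 elsewhere (-5.25 ± 0.39, adjusted p = 6.99e-08), whereas Itgad was near 0 outside spleen. Itga9, which binds VCAM-1, was at 296, 238 and 193 CPM in spleen against 25 ± 2.84 in microglia and 18 ± 5.35 in ganglia, with fibers, sATM and vATM listed at or near 0 (adjusted p = 5.42e-10). The raw gene-body table holds 4001 to 11975 counts of it in the other libraries, and there it was not called, at 1.32 (adjusted p = 0.454). Pecam1, an adhesion molecule of blood and endothelial cells, was at 57 ± 10.9 CPM against 0.333 to 5.57 (adjusted p = 2.69e-06). F4/80 (Adgre1) and CD45 (Ptprc), the sorting markers, were called higher by 1.37 ± 0.18 and 1.28 ± 0.23 (adjusted p = 2.99e-05 and 8.56e-04), but sATM 1 held more Ptprc than any spleen library. Neither was called on the raw gene-body counts, at 1.56 and 1.55 (adjusted p = 0.247 and 0.476).

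Lectins and sialic acid receptors followed no common direction, with 8 of 31 higher, 10 lower and a median of -0.30. Clec4n, encoding dectin-2, which binds fungal mannans, was at 648, 479 and 471 CPM in spleen and at most 32.3 elsewhere (5.77 ± 0.31, adjusted p = 2.21e-09). Clec1b, encoding CLEC-2, was at 55.5 ± 11.9 CPM against at most 1.33 in another group (adjusted p = 2.02e-08). Siglece, an inhibitory receptor, was at 179 ± 40.3 CPM against 9.83 to 48 (2.99 ± 0.23, adjusted p = 8.41e-08). The galactose-binding lectin Mgl2 was at 0.0832, 0 and 0 CPM in spleen against 206 to 478 in ganglia, fibers and fat and 6.23, 0 and 0 CPM in the microglia libraries (adjusted p = 7.55e-06), a call lost without Microglia 1.

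The immediate early genes, which switch on within minutes of a stimulus without new protein synthesis, were low in spleen. Of 25 tested members 21 were called lower and none higher, with a median of -3.68, and 6 were lower than in each group. On the raw gene-body counts 11 were lower. Fos, an AP-1 subunit, was at 2.25, 7.77 and 0.152 CPM in spleen, 3881, 3071 and 2842 in ganglia, 5863 and 6643 in fibers, 2031 and 1486 in subcutaneous fat and 1508 and 1201 in visceral fat. Microglia had 14.4, 15.7 and 13.2 CPM, so that spleen and brain were both low and the other 4 groups high (-8.07 ± 0.70, adjusted p = 3.76e-07). Atf3, a stress-induced factor, was at 5.65, 5.58 and 3.2 CPM in spleen, 14.8 ± 2.06 in microglia and 535 to 2927 in the other groups (-6.63 ± 0.31, adjusted p = 8.26e-10). Jun was at 6.99, 6.02 and 6.24 CPM against 59 ± 12.1 in microglia and 447 to 1842 elsewhere (-6.35 ± 0.41, adjusted p = 1.83e-08).

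Taken group by group, 20 of the 25 were lower in spleen than in ganglia, 24 than in fibers, 21 than in sATM and 22 than in vATM, where 6.03%, 7.63%, 5.23% and 5.46% of all tested genes were lower. Against microglia 6 were lower and 3 higher, with a median of 0.15. The 5 comparisons share the spleen libraries. Spleen, brain and both fats had the same digestion in the labels. For ganglia and fibers, tissue and digestion cannot be told apart. In bulk libraries, fewer cells carrying a transcript and less of it per cell cannot be told apart, here and in the other results.

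Promoters of the immediate early and heat shock genes were searched because their members were low together. The windows run from 250 bases before to 50 bases after the RefSeq start (GRCm38.p6). A CArG box, the known binding sequence of serum response factor, was found on either strand in 2 of 21 immediate early genes with a window, against 1.57% of 11673 tested genes with one, and a heat shock element (GAA, TTC and GAA in a row with 2 free bases between them, either strand) in 4 of 12 heat shock genes against 0.66%. The cAMP response element TGACGTCA was in 3 of the 21 (Btg2, Dusp1 and Maff) against 3.09%, and the AP-1 site TGANTCA in 2 of the 12 (Bag3 and Hspa5) against 7.38%. The 4 with a heat shock element are Chordc1, Hspd1, Hspe1 and Hsph1, of which only Hsph1 was called. A motif match is a description of the sequence and no evidence of binding. The windows of 3 called genes follow, with the matched motif in capitals, the CArG box in Zfp36 (chr7:28379179-28379478, minus strand) and Egr2 (chr10:67537619-67537918, plus strand, 1 of 5 annotated windows) and the heat shock element in Hsph1 (chr5:149636287-149636586, minus strand, 1 of 2).
Zfp36: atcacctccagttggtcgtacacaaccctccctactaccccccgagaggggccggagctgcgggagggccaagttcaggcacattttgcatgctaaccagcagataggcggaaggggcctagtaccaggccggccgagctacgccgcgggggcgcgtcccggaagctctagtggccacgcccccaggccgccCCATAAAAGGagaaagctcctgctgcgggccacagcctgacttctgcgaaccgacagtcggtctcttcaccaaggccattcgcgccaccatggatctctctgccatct
Egr2: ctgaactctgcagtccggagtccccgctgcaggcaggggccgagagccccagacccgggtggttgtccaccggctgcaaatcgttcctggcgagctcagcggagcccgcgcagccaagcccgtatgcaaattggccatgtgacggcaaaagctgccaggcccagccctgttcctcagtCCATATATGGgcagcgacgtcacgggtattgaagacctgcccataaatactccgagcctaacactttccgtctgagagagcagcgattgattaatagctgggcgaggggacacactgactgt
Hsph1: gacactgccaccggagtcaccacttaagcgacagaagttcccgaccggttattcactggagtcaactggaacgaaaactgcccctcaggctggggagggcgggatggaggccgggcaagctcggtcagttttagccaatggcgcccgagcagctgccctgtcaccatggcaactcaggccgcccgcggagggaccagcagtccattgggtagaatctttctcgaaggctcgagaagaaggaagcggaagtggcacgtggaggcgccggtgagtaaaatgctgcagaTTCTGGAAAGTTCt
Zfp36, which destabilizes cytokine mRNAs, was at 48.8, 65.7 and 37.6 CPM in spleen, 42.9, 59.8 and 46.5 in microglia and 981 to 3566 in the other groups (-3.89 ± 0.26, adjusted p = 2.50e-08). Egr2, a zinc-finger transcription factor, was at 3.99, 5.91 and 3.04 CPM, with microglia at 1.38, 5.05 and 2.43 and the other groups at 42.4 to 454 (-3.46 ± 0.48, adjusted p = 6.62e-05). Hsph1, a large chaperone, was at 11.6, 18.4 and 13.1 CPM, with microglia at 8.65, 7.3 and 11.2 and the others at 34.4 to 110.1 (-1.61 ± 0.31, adjusted p = 0.00158). Zfp36 and Hsph1 were not called on the raw gene-body counts, at -3.54 and -2.71 (adjusted p = 0.0577 and 0.107). None of the 6 motifs searched was found in the windows of 8 of the 9 red pulp genes that had one, and Blvrb held a CArG box. The remaining motifs, GAGGAAGT and the NF-kB site, were in none of the windows of the 3 lists and in 3.73% and 0.959% of the tested genes with a window.

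Heat shock genes were lower for 8 of 15 members and higher for 1, with a median of -1.25. On the raw gene-body counts 3 were lower. Against microglia 2 were lower and 1 higher (median -0.18), and against each of the other groups 5 to 10 were lower and 0 or 1 higher. The summed level averaged 782 CPM in spleen, 655 in microglia and 3392 to 5747 in the other groups. Hspa1a, the inducible HSP70 chaperone, was at 0.748, 1.64 and 1.83 CPM in spleen, 18.9, 14.3 and 27.5 in microglia and 1705 to 2831 in the other groups (-9.27 ± 0.43, adjusted p = 8.20e-10). Its near-identical copy Hspa1b was at 0.0832, 0.547 and 0.609 CPM (-9.48 ± 0.58, adjusted p = 9.10e-09), and reads shared between the copies make their split uncertain. Hsp90aa1 was called higher (adjusted p = 7.11e-04), and the corrected table lists it at 0 in all libraries of ganglia and fat. The raw gene-body table holds 2182 to 9307 counts for it in those libraries and 306 to 566 in spleen, and on that table the log2 fold change was -2.92 (adjusted p = 0.172). The call was also lost without SAM fibers 1.

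Chemokines and cytokines were lower for 18 of 34 tested members, with a median of -3.35 (-3.37 with groups listed at 0 at their bound). On the raw gene-body counts 14 were lower. Against microglia 7 were lower and 5 higher (median -0.72), and against each of the other groups 15 to 24 were lower and 1 or 2 higher. The summed level averaged 526 CPM in spleen, 462 in microglia and 2983 to 8734 in the other groups. Ccl3, which attracts monocytes, was at 0.582, 0.219 and 0.304 CPM in spleen and 16.8 to 1104 elsewhere (adjusted p = 1.99e-09). Ccl4 was at 1.91, 1.86 and 0.304 CPM against 19 to 1246 in the other groups (-6.66 ± 0.43, adjusted p = 1.42e-08) and Ccl9 at 3.66, 1.86 and 1.22 against 83 to 803 (-6.89 ± 0.50, adjusted p = 6.25e-08). Ccl12 was at 0.0919 ± 0.0845 CPM against 9.05 to 271 (adjusted p = 3.58e-07). Tnf, at 5.11 ± 1.33 CPM, and Il1b, at 32.9 ± 19.2, were lower against the mean (-2.88 ± 0.42 and -2.27 ± 0.38, adjusted p = 1.15e-04 and 4.49e-04) while microglia held 3.17 ± 1.11 and 2.79 CPM. The 3 microglia libraries had 3.63, 1.68 and 3.04 CPM of Il1b. Neither Tnf nor Il1b was called on the raw gene-body counts, at -2.48 and -2.21 (adjusted p = 0.218 and 0.454), and Il1b overlaps Il1bos.

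Il18, whose product caspase-1 cleaves to its active form, was the only member called higher against the mean of the other groups. It was at 193, 180.3 and 169.9 CPM in spleen and 5.38 to 24.9 CPM in the other 12 libraries (3.75 ± 0.24, adjusted p = 1.16e-08), without overlap. Genes of NF-kB feedback were lower for 7 of 16, with Socs3 the only 1 lower than in each group (1.96 ± 0.786 CPM against 6.88 to 283, -4.39 ± 0.39, adjusted p = 5.50e-07), and higher for 2, with a median of -0.96; on the raw gene-body counts 1 was lower. Against microglia 6 of the 16 were higher and 1 lower, where 5.79% and 5.30% of all genes were. Of 20 Toll-like receptor genes 5 were higher and 2 lower, with a median of 0.14. Tlr4, the lipopolysaccharide receptor, was at 187 ± 42.3 CPM against 39.5 to 90.3 (1.58 ± 0.23, adjusted p = 1.25e-04), and Tlr5, the flagellin receptor, at 0.623 ± 0.464 against 5.95 to 18.3 (-4.12 ± 0.76, adjusted p = 0.00104). On the raw gene-body counts no Toll-like receptor gene was called higher, and Tlr4 and Tlr5 were at 1.92 and -2.23 (adjusted p = 0.182 and 0.105).

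Of 33 interferon response genes 5 were higher and 1 lower, with a median of 0.41. The direction differed between reference groups. Against microglia 14 were higher and 0 lower (median 1.955), and against vATM 5 and 0 (0.66). Against fibers 4 were higher and 3 lower (0.34), against ganglia 1 and 6 (-0.59) and against sATM 1 and 4 (-0.18). Ifi44, at 14.1 ± 8.22 CPM, lost its call without SpM 1. Leaving out 1 library at a time changed the number of higher members to between 3 and 11.

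Several chemokine receptors were lower. Among 35 tested chemokine and cytokine receptor genes 4 were higher and 6 lower, with a median of -0.06 (-0.17 at the bound). Cx3cr1, the fractalkine receptor, was at 14.1, 8.75 and 15.1 CPM in spleen and 85.3 to 4627 in the other groups, highest in microglia (-5.42 ± 0.50, adjusted p = 8.56e-07). Ccr2, by which monocytes leave the marrow, was at 8.32, 1.2 and 2.28 CPM in spleen and 40.9, 3.93 and 10.9 in microglia, which overlapped, and at 267 to 1029 in the other groups (-6.22 ± 0.76, adjusted p = 1.82e-05). Ccr1, a receptor for inflammatory chemokines, was at 1.84 ± 1.44 CPM against 19.7 to 159.7 (-5.33 ± 0.49, adjusted p = 7.56e-07). Ccr3, best known as the eotaxin receptor of eosinophils, went the other way, at 845, 912 and 653 CPM in spleen and at most 7.38 in any other library (adjusted p = 1.02e-09). Of the 7 tested eosinophil genes Ear2, a secreted ribonuclease, was also called higher, at 62.8, 103 and 78.2 CPM in spleen and 0.608 to 338 elsewhere, with overlap (1.29 ± 0.34, adjusted p = 0.0145), and its close copies Ear1 and Ear6 can share its reads. The list without Ccr3 summed to 67 to 106 CPM in spleen and 12.8 to 341 elsewhere. Its members without the Ear genes, Siglecf, Epx, Prg2 and Il5ra, summed to 3.0 to 3.68 CPM there, within the 0 to 27.1 CPM of the other libraries.

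Against a mean that holds microglia and fat macrophages, most listed genes of other resident macrophages were lower in spleen. Of 17 microglial genes 9 were lower and 1 higher, with a median of -4.33. Against microglia 16 were lower, against ganglia 14 and against fibers 9, with 0, 0 and 4 higher. Against sATM 6 were lower and 4 higher (median 0.0), and against vATM 7 and 3 (median -0.10). Of 17 genes of adipose and perivascular macrophages 12 were lower and 4 higher, with a median of -5.10. Against microglia 4 of them were lower and 4 higher, and against the other groups 10 to 13 were lower and 0 to 2 higher. Fcrls, an Fc-receptor-like scavenger of mouse microglia, was at 0.166, 0.109 and 1.07 CPM in spleen and 121 to 1894 elsewhere (adjusted p = 5.93e-08). Trem2, a lipid-sensing receptor, was at 0.166, 0.109 and 0 CPM, at or below 2 counts a library, while all other libraries had 15.3 to 1129.9 CPM (adjusted p = 8.12e-09). Sparc, a matrix protein, was at 1.14 ± 0.343 CPM against 17.5 to 2130.5 (-6.40 ± 0.34, adjusted p = 1.99e-09). P2ry13, a receptor for ADP, was higher than the mean (2.37 ± 0.26, adjusted p = 6.28e-06), at 298 ± 65.2 CPM, below microglia at 959.9 ± 95. Its span overlaps Med12l.

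F13a1, a clotting factor of perivascular macrophages, was at 1.33, 0.109 and 0.913 CPM in spleen and 8.0 to 841 in the other groups (-8.07 ± 0.61, adjusted p = 8.41e-08). Folr2, a folate receptor, was at 0.942 ± 0.755 CPM, near microglia at 1.6 ± 0.525, against 55.1 to 421 in the others (-6.07 ± 0.69, adjusted p = 8.89e-06). Lyz2, the lysozyme of myeloid cells, was at 94.1, 116 and 104 CPM in spleen, 249.6, 193 and 342 in microglia and 4879 to 9516 elsewhere (-5.04 ± 0.29, adjusted p = 3.85e-09). All 12 other libraries lay above the spleen libraries for F13a1 and Lyz2. For F13a1 this was a condition of its place among the 15 most changed lower genes. Csf1r, the receptor for the macrophage growth factor CSF-1, and Cd68, C1qa, C1qb, Fcgr1, Cd14, Tyrobp, Fcer1g and Lgals3 were the core genes not called. Of 18 core genes 5 were higher and 4 lower, with a median of 0.57; on the raw gene-body counts 1 was higher and 3 lower.

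**Figure D4:**
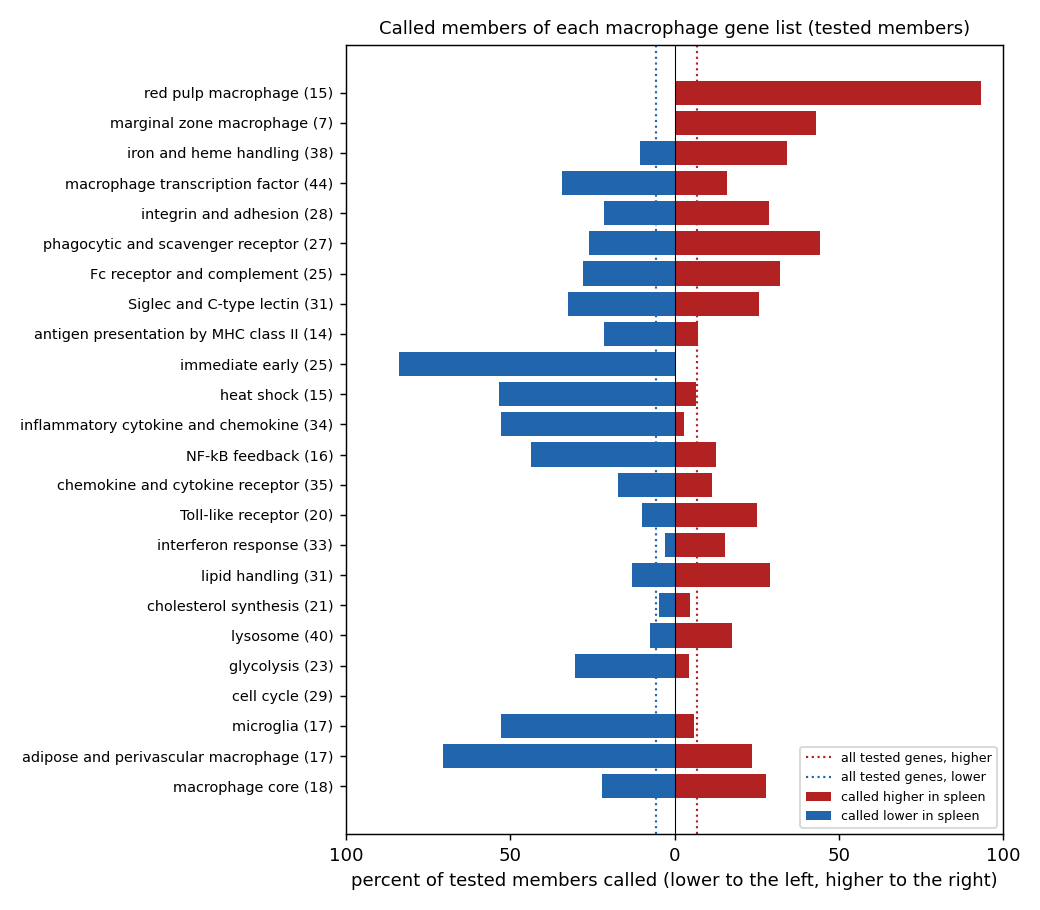
Percent of the tested members of each macrophage gene list called higher (bars to the right) or lower (bars to the left) in spleen against the mean of the other 5 groups, with the number of tested members after each name. Dotted lines are the percentages of all tested genes, 6.73% higher and 5.72% lower. The red pulp list has the longest bar to the right and the immediate early list the longest to the left.

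Lysosomal genes were higher for 7 of 40 members and lower for 3, with a median of 0.38, and 2 were higher on the raw gene-body counts. Acp5, an acid phosphatase that binds iron, was at 303, 280.3 and 311 CPM in spleen, 2.71 to 19.4 in ganglia, fibers and fat and 0 in microglia (adjusted p = 2.24e-09). Acp2 was at 404 ± 48.7 CPM against 38.5 to 187 (2.41 ± 0.20, adjusted p = 3.13e-07), its span overlapping Ddb2. Ctsb, the protease cathepsin B, was at 5449, 6069 and 5008 CPM against 1036 to 1874 in the other libraries (1.96 ± 0.16, adjusted p = 2.12e-07), and was not called on the raw gene-body counts, where the fold change was 2.08 (adjusted p = 0.124). Its span overlaps Fdft1. Creg1, a secreted lysosomal glycoprotein, was at 1114, 1173 and 991 CPM against 65.5 to 233 (3.18 ± 0.16, adjusted p = 1.67e-09). Cd63, a tetraspanin of late endosomes, was lower than in each group, at 0.558 ± 0.49 CPM against 7.12 to 18.8 (-4.56 ± 0.69, adjusted p = 1.67e-04).

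Of 23 genes of glycolysis 7 were lower and 1 higher, with a median of -0.80, and 1 was lower on the raw gene-body counts. The lactate exporter Slc16a3 was at 0.496 ± 0.438 CPM against 4.99 to 29.6 (-4.98 ± 0.74, adjusted p = 1.41e-04) and hexokinase 1 (Hk1) at 0.813 ± 0.288 against 9.53 to 23 (-4.16 ± 0.45, adjusted p = 4.70e-06), the latter overlapping Hk1os and not called on the raw gene-body counts, at -1.09 (adjusted p = 0.521). Antigen presentation by MHC class II had 1 of 14 members higher and 3 lower, with a median of -0.46 (-0.60 at the bound). Against ganglia, fibers, sATM and vATM 6 or 7 members were lower and 1 or 2 higher (medians -1.88 to -0.98). Against microglia 3 were lower and 5 higher (median 1.28). The costimulatory ligand Cd86, the member higher against the mean, was at 325, 406 and 248 CPM against 31.7 to 148 (2.23 ± 0.27, adjusted p = 1.40e-05). H2-Eb1 was at 382 ± 82 CPM in spleen, 27.6 ± 25.1 in microglia and 2454 to 3413 elsewhere (-1.63 ± 0.42, adjusted p = 0.0139), a call lost without SpM 1, SpM 3, sATM 2, vATM 1 or vATM 2. Cd86 and H2-Eb1 were not called on the raw gene-body counts, at 1.25 and -1.45 (adjusted p = 0.69 and 0.872). None of 29 cell cycle genes was called, with a median of -0.73. Mki67, a marker of dividing cells, was at 9.57 ± 2.4 CPM in spleen and 9.85 to 52.1 in the other groups.

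Markers of other blood and spleen cells were present at low levels. B cell genes summed to 111 to 146 CPM in the spleen libraries and 24.1 to 87.2 CPM in the others, and 5 of 11 were called higher and 1 lower. On the raw gene-body counts 2 B cell genes were higher and 0 lower. Cd79b, a subunit of the B cell receptor, was at 59.2, 80.6 and 87.8 CPM (1.82 ± 0.21, adjusted p = 1.22e-05), while Cd79a was at 6.87 ± 1.43 and Ms4a1 at 6.59 ± 0.251 CPM, the latter not called. Of 8 tested plasma cell genes 2 were higher, Jchain and Mzb1, and 2 lower, Irf4 and Tnfrsf17, with a median of -0.46. On the raw gene-body counts 2 plasma cell genes were higher and 0 lower. Jchain, of antibody-secreting cells, varied from 5.58 to 47.1 CPM between spleen libraries. T cell genes summed to 21.7 to 41 CPM against 9.65 to 62.7, with Cd3e at 0.89 ± 0.373 CPM, and NK cell genes to 14.5 to 20.7 against 0.621 to 16.8. The erythroid genes summed to 216 to 666 CPM in spleen against 56.3 to 4646, and the globin genes among them are near-identical copies that share reads. The platelet genes summed to 21.8 to 31.2 against 34.2 to 392.

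Endothelial genes gave a mixed reading. Stab2 and Pecam1 were higher, but Cdh5, Kdr, Tek, Tie1, Emcn, Cldn5, Flt1 and Egfl7 together stood at 0.890 to 6.16 CPM in spleen and 3.37 to 26.5 elsewhere, with Tek and Tie1 at 0 in all spleen libraries. Lyve1 was lower. Monocyte genes were lower for 7 of 12 and higher for 2, Treml4 and Cd300e, and the other 10 summed to 72.0 to 94.6 CPM in spleen against 20.9 to 4212. On the raw gene-body counts 2 monocyte genes were lower and 2 higher. Of 12 dendritic cell genes 3 were higher and 3 lower. Clec9a, a receptor of dendritic cells for dead cells, was at 31.2, 21.8 and 29.7 CPM in spleen against at most 2.73 in another group (adjusted p = 8.85e-05), while Xcr1 was at 2.02 ± 0.56, Flt3 at 0.927 ± 0.544 and Zbtb46 at 1.12 ± 0.78 CPM and none of these was called. Sympathetic neuron genes were lower for 9 of 13, Schwann cell and satellite glia genes for 5 of 10 and fibroblast genes for 4 of 10, with spleen sums of 6.43 to 9.30, 5.21 to 13.3 and 6.76 to 11 CPM. On the raw gene-body counts 0, 1 and 0 genes of these lists were lower. The part of such cells in the results was not tested.

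**Figure D5:**
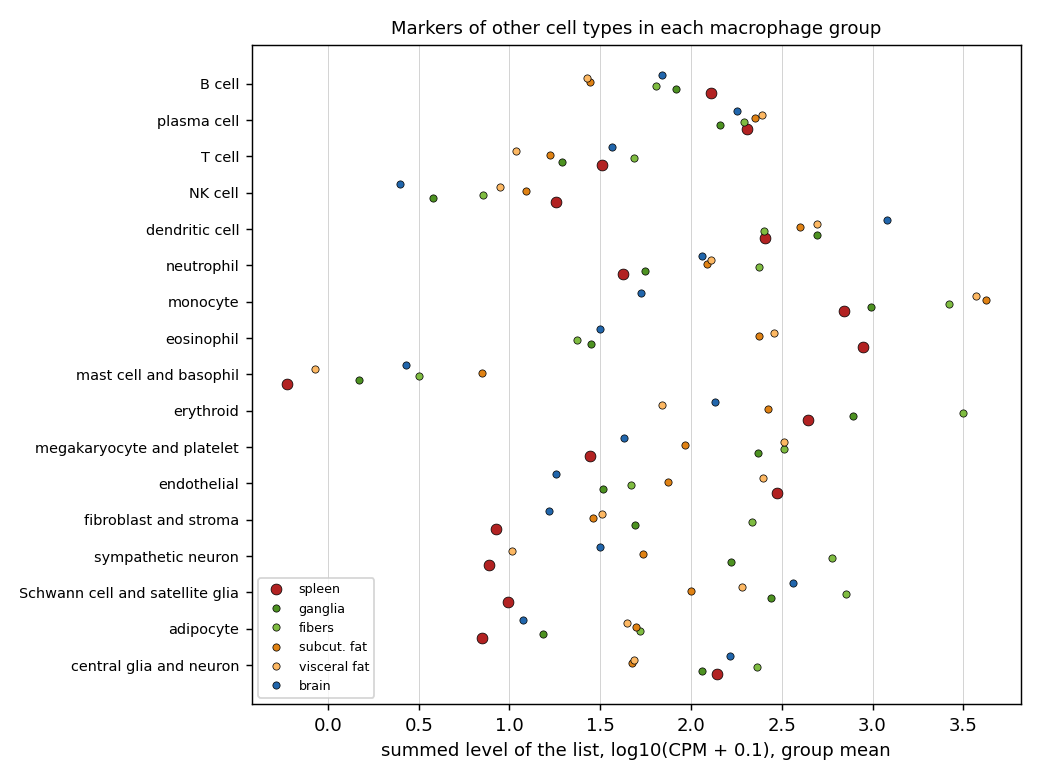
Summed level of markers of 17 other cell types in each macrophage group, as log10 of CPM plus 0.1 (horizontal axis, log scale). Points are group means, the larger red points being spleen. The spleen point lies above all other groups for B cell, NK cell, eosinophil and endothelial genes and below them for neutrophil, mast cell, platelet, fibroblast, neuron, Schwann cell and adipocyte genes.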

How the data were processed

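RNA from sorted macrophages was sequenced in 15 libraries of 6 groups. The submitters' processing notes list STAR, HOMER and the mm10 build; tool versions are not given there. The main values are estimated counts per gene that the authors deposited after removing DNA contamination; 45.3% of them are whole, and they were rounded here. The authors also deposited raw counts over whole gene bodies and RPKM values after the same removal, which served as alternatives.

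Of 24084 genes, 15289 passed edgeR's filter on low counts (minimum count 10). The counts were scaled by TMM, and edgeR 4.0.16 (R 4.3.3) fitted 1 mean per group over all 15 libraries with a robust quasi-likelihood model. The contrast was spleen against the equally weighted mean of the other 5 groups, and against each of them. Calls needed a Benjamini-Hochberg adjusted p under 0.05 and a fold change past 1 on the log2 scale. The fit was also run on simulated counts drawn from its own spread, with the other 5 groups sharing 1 mean per gene. That run does not cover the zeros left by DNA removal or differences between the reference groups. CPM values are scaled by TMM. Alternatives used DESeq2 1.42.0, limma 3.58.1, other scalings, filters, tables and reference groups, and left out each library in turn.

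The markers and 42 gene lists were chosen with earlier results of these data known. Named genes were the markers, both sorting markers, up to 4 members per list by smallest p, and the 15 most changed called genes each way. These had to reach 30 CPM in whichever of spleen or the reference mean was greater, with all spleen libraries outside the range of the other 12, and unnamed or small RNA genes were passed over. Further genes were chosen after their values were seen. Promoter sequences are from RefSeq (GRCm38.p6). Slc40a1 and Vcam1 had no entry. Some members counted in the lists are not reported here by name.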

Additional observations from a re-analysis of the deposited data

How the results depend on the processing

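With the main settings 1029 genes were higher and 875 lower in spleen, and 192 and 222 were higher or lower than in each group. With limma's voom and quality weights the counts were 1681 and 1355. The raw gene-body counts gave 429 and 139 of 21705 tested genes, and 16 and 3 against each group. There 75.5% of calls were higher, against 54.0%. On log2(RPKM + 1) 335 genes were higher and 113 lower than in each group, and on log2(RPKM + 0.1) 140 were lower. With microglia left out of the reference 411 genes were lower than in each remaining group. With fibers left out of the fit, an alternative chosen after seeing the data, 290 were higher than in each remaining group, against 211 with fibers kept in the fit and left out of the reference. Leaving out a reference group leaves fewer groups to pass; what else moved these counts was not tested. Leaving out 1 library at a time gave 748 to 1983 higher and 686 to 905 lower genes, and 89 to 228 higher and 166 to 232 lower than in each group. Without SAM fibers 2, the library behind the 1983, 69.5% of calls were higher. The log2 fold change of Hsp90aa1 became -2.92 on the raw gene-body counts, and that of Cd163 became -0.045 without microglia in the reference. Deviations of same-numbered libraries correlated above 0.1 in 16 of 33 pairs (-0.38 to 0.64). Outside fibers this held in 10 of 10 pairs of number 1 (0.18 to 0.64), 3 of 10 of number 2 and 2 of 3 of number 3. Not every pair passed, and the main fit did not pair the samples by number. The number 1 libraries outside fibers also had the lowest raw olfactory receptor counts of their groups, 32.9 to 102 CPM. What these libraries share was not tested. Between groups of 2 libraries the pairs of number 1 and number 2 give the same value, so they are not separate observations. With the replicate number as a block 1009 genes were higher and 830 lower, and 187 and 212 than in each group. Of 297 called genes followed through 33 alternatives, 121 kept their call in all, 161 lost it on the raw counts with the direction kept, 87 of them in no other alternative, and 73 lost it when 1 library was left out. Of the 161, 131 still differed on the raw counts by 1 or more on the log2 scale. Genes under 0.249 to 0.897 CPM, depending on the library, cannot be told from 0.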
